A study of Homo sapiens with 28 samples.

Results

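ONECUT2 overexpression in LNCaP cells kept in normoxia was measured by RNA-Seq in 4 libraries, 2 from cells with the empty vector (EV) and 2 from cells with the Flag-OC2 vector. LNCaP is an androgen-responsive prostate cancer cell line. The members described here are the genes of the LNCaP table with at least 1 RPKM (read number scaled to transcript length and library size) in at least 2 of these 4 libraries, and without an exact 0 beside a value over 10 RPKM. Of 19662 genes in the table, 11807 met this rule, 7837 were under the level limit, 17 had such a 0 and 1, ONECUT2 itself, lacked values. The series also holds 4 LNCaP libraries of the same vectors at 0.2% O2 and 8 libraries of PC3 prostate cancer cells with control siRNA (siCtrl) or 1 of 2 ONECUT2 siRNAs (siOC2), and these are used below only for comparison. The labels do not say whether the 2 libraries of a group came from separate cultures, so each p-value measures the spread between libraries, which may be technical. The methods of the study name several ONECUT2 vectors, with a CMV promoter in the name of some, and do not say which of them these cells carried.

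ONECUT2 is a homeodomain transcription factor of the ONECUT family, which has a cut domain beside the homeodomain and binds short sequences of the ATCGAT and ATTGAT kind. The family acts in the development of the liver, the pancreas and neurons. In prostate cancer the factor has been linked to the loss of the androgen response and to neuroendocrine features, and the comparison asks which genes move when it is raised in an androgen-driven line at normal oxygen.

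The targeted gene could be read in the control libraries only. ONECUT2 (hg19 chromosome 18, 55102606 to 55158530, plus strand) had 2.89 and 7.86 RPKM in the 2 EV libraries and no value in the ONECUT2 libraries, so the overexpression itself could not be checked here. Its paralogs ONECUT1 and ONECUT3 were at most at 0.302 RPKM in the 4 libraries. All 14 LNCaP markers in the table were above 1 RPKM in at least 1 of the 4 libraries, with a summed level of 4104 and 4124 RPKM with EV and 3735 and 3812 RPKM with ONECUT2. KLK3 carries much of this sum, and gene by gene 12 of the 14 had a negative log2 fold change, with a median of -0.35. Of 15 markers of PC3, stromal or immune cells, 10 stayed below 1 RPKM in every library, and PTPRC and CD3E were at 0 in all 4. The summed level was between 78.8 and 82.4 RPKM in both groups, and VIM and CD68 carried much of it. With EV and then ONECUT2, VIM had 34.3 and 37.5 against 23.6 and 28.7 RPKM. CD68 had 34.6 and 28.7 against 36.5 and 33.3 RPKM, and COL1A1 had 7.72 and 7.57 against 10.9 and 10.9 RPKM. The depth of each library, read from the value of 1 read in genes under 0.15 RPKM, was 1.21 for the second EV library, 0.664 for the first ONECUT2 library and 0.946 for the second, relative to the first EV library. Read totals are not known.

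Six-letter matches to the binding sequence of the family were searched in the RefSeq promoter windows of GRCh38.p14, which run from 250 bases before to 50 after a transcript start, and 9038 of the 11807 genes had at least 1 window. ATCGAT is its own reverse complement, and ATTGAT was searched on both strands. Windows with either motif made up 6.09% of 460 windows of genes that were higher with ONECUT2. The share was 2.86% of 245 windows of genes that were lower and 4.14% of 13266 windows of all genes kept. The 2 motifs differed in direction. ATCGAT stood in 1.3% of the windows of genes that were higher, 2.04% of those that were lower and 0.776% of all. ATTGAT stood in 4.78%, 0.816% and 3.38%. The promoters below are the largest increases with ATCGAT before the start (OSBPL7 and UTS2B), a listed p53 target that was higher (PLK3) and a listed stress response gene that was lower (PSAT1), each chosen after its values were seen. The last is EGR1, the largest increase among immediate early genes, in which the CArG box bound by serum response factor was searched after the values were seen. The 250 bases before each start are given 5′ to 3′ on the strand of the gene, with the motif in capitals.
OSBPL7 (GRCh38.p14 chr17:47821795-47822044, minus strand): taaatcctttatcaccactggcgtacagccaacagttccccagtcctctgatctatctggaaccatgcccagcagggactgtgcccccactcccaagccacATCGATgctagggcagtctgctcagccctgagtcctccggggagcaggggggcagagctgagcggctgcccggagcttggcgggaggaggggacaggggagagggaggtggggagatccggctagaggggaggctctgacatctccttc
UTS2B (GRCh38.p14 chr3:191330527-191330776, minus strand): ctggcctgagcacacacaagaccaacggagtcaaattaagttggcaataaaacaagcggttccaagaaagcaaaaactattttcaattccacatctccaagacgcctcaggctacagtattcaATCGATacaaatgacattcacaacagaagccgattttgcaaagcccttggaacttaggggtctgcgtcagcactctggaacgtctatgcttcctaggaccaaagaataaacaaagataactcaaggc
PLK3 (GRCh38.p14 chr1:44800127-44800376, plus strand): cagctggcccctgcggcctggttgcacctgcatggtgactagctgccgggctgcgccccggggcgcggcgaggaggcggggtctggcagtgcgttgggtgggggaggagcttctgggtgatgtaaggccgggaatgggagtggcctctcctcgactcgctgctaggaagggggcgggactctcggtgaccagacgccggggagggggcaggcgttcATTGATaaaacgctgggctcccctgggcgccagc
PSAT1 (GRCh38.p14 chr9:78296875-78297124, plus strand): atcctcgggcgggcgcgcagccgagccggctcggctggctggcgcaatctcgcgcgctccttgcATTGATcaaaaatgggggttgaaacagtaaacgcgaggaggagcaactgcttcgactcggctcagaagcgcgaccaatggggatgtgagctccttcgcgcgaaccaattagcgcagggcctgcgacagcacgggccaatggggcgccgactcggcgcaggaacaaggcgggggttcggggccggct
EGR1 (GRCh38.p14 chr5:138465229-138465478, plus strand): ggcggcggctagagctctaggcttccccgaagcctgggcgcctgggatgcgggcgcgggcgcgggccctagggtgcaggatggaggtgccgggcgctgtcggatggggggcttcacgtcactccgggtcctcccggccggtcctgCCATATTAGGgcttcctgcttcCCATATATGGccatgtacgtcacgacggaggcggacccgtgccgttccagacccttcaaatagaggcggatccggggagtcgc
A match is a run of letters and not a measured binding site. EGR1 had 2 CArG boxes, which start 105 and 83 bases before the transcript start. The CArG box stood in 2.83% of the windows of genes that were higher, 0.408% of those that were lower and 1.02% of all, and EGR1 and SRF were the 2 of 16 listed immediate early genes with a window that held it.

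With ONECUT2, 428 genes rose and 228 fell at a Benjamini-Hochberg adjusted p under 0.05, which is 3.62% and 1.93% of the 11807 genes tested. The test was a limma fit of log2(RPKM + 0.1) to the 8 LNCaP libraries. Each count of called genes in a list or family below is to be read beside these 2 shares. The increases were the larger changes: 224 of the 428 were over 2-fold and 88 over 4-fold, against 17 and 1 of the 228 decreases. In 128 of the genes that rose (29.9%) the EV mean was under 1 RPKM, whereas 3 of the genes that fell had an ONECUT2 mean that low. At the limits used in the study, which ask for more than a 2-fold change with P below 0.05 before adjustment, 270 genes (2.29%) were higher and 43 (0.364%) lower. The split of the calls moved with scaling, since all genes had a median log2 fold change of -0.08: the genes that rose were 65.2% of all calls on the deposited values, and 83.4% (523 higher, 104 lower) after upper-quartile scaling. Single libraries also set the counts: without the first ONECUT2 library 133 genes were higher and 13 lower, and without the first EV library 376 and 544.

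**Figure D1:**
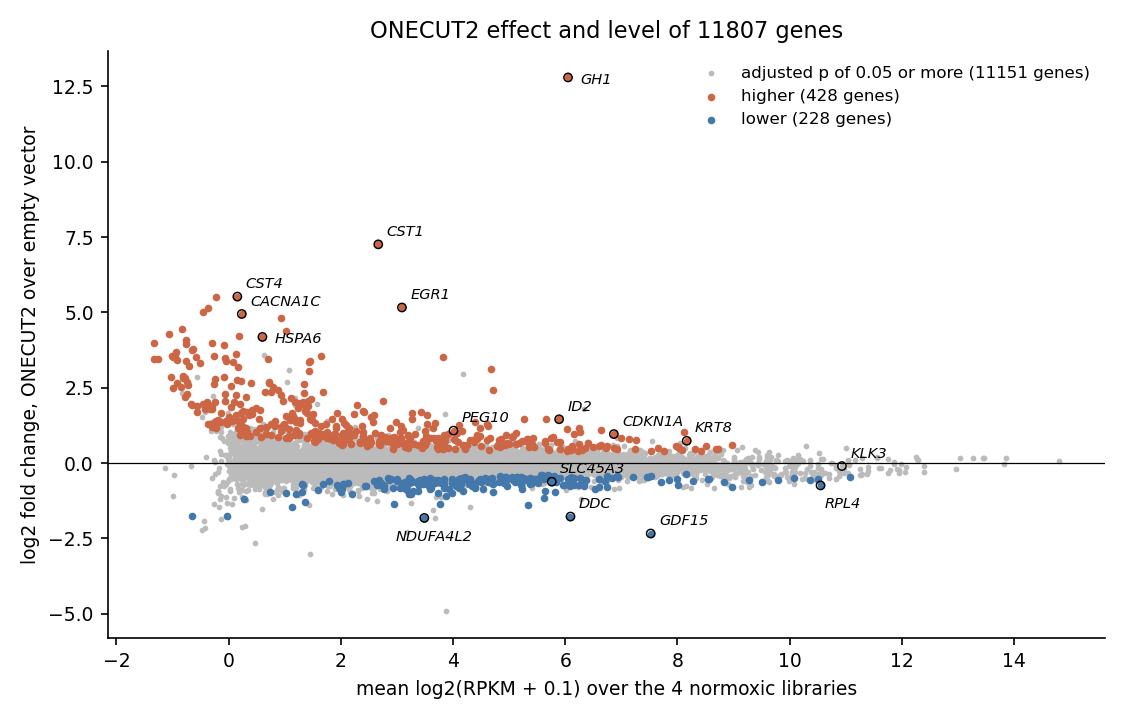
Each point is 1 of the 11807 genes, with its mean log2(RPKM + 0.1) over the 4 normoxic libraries on the x axis and its log2 fold change, ONECUT2 over EV, on the y axis. The 428 genes that rose reach a log2 fold change of 12.80 (GH1) and many of the largest changes lie at low levels, while the 228 that fell reach -2.34 (GDF15).

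The 10 largest increases were GH1, CST1, CST4, SLC17A7, EGR1, CACNA1C, FOSL1, FOSB, HSPA6 and RCOR2, whose EV values were between 0.0216 and 2.73 RPKM. GH1, the pituitary growth hormone (hg19 chromosome 17, 61994560 to 61996199, minus strand), was at 0.118 and 2.73 RPKM with EV and at 5374 and 5817 RPKM with ONECUT2. The groups were far apart, by 12.80 ± 1.32 (SE) on the log2(RPKM + 0.1) scale (adjusted p = 0.0011), and the EV libraries themselves differed. CSH2, a placental lactogen gene of the same cluster whose sequence is close to GH1, was at 0 and 0.0422 RPKM with EV and 1.08 and 1.38 RPKM with ONECUT2, and reads of the 2 genes can be exchanged. Expression vectors of the pCMV6 kind, 1 of which the methods name for ONECUT2, carry a growth hormone polyadenylation signal, and reads of a vector and of the chromosomal gene cannot be told apart in these values.

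Of the cystatins, secreted inhibitors of cysteine proteases, CST1, CST2 and CST4 rose. CST1 (hg19 chromosome 20, 23728199 to 23731905, minus strand) was at 0.37 and 0.46 RPKM with EV and 74.2 and 83.2 RPKM with ONECUT2, a log2 fold change of 7.26 ± 0.17 (adjusted p = 1.44e-07). CST4 (chromosome 20, 23666277 to 23669675, minus strand) rose from 0.0854 and 0.0455 RPKM to 6.71 and 8.30 RPKM, 46.0-fold on the log2(RPKM + 0.1) scale (adjusted p = 2.18e-05). CST2, a neighbour named after its values were seen (chromosome 20, 23804406 to 23807366, minus strand), was at 0.0123 and 0.0305 RPKM against 2.49 and 2.57 RPKM (adjusted p = 6.42e-05). In all of them the ONECUT2 libraries lay close together. They also lay above both EV libraries, which the choice of CST1 and CST4 required. These cystatins are near-identical in sequence, so reads may be split between them. CST3, the broadly expressed cystatin of the same cluster, had 55.9 and 79.6 RPKM with EV and 57.7 and 63.2 RPKM with ONECUT2 (adjusted p = 0.605). CST5 and CST6 were listed at 0 in all 4 libraries, and CST7 was at 0.0551 and 0.0912 RPKM with EV and at 0 with ONECUT2.

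Genes of excitable cells were also among the top. SLC17A7, which loads glutamate into synaptic vesicles, was at 0.0216 and 0.0325 RPKM with EV and 5.29 and 6.21 RPKM with ONECUT2 (log2 fold change 5.52 ± 0.26, adjusted p = 2.04e-05). CACNA1C, the pore subunit of an L-type calcium channel, was at 0.0404 and 0.219 RPKM against 6.50 and 6.38 RPKM (adjusted p = 0.000474). RCOR2, a corepressor that works with LSD1 and REST, was at 0.358 and 1.75 RPKM against 10.9 and 10.4 RPKM (adjusted p = 0.0146), and this call was lost when either ONECUT2 library was left out. HSPA6, a stress-inducible HSP70, was at 0.267 and 0.245 RPKM with EV and 7.23 and 5.63 RPKM with ONECUT2 (log2 fold change 4.19 ± 0.36, adjusted p = 0.00043). Of the 10 top increases, the other 9 were called in all 19 alternative analyses.

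**Figure D2:**
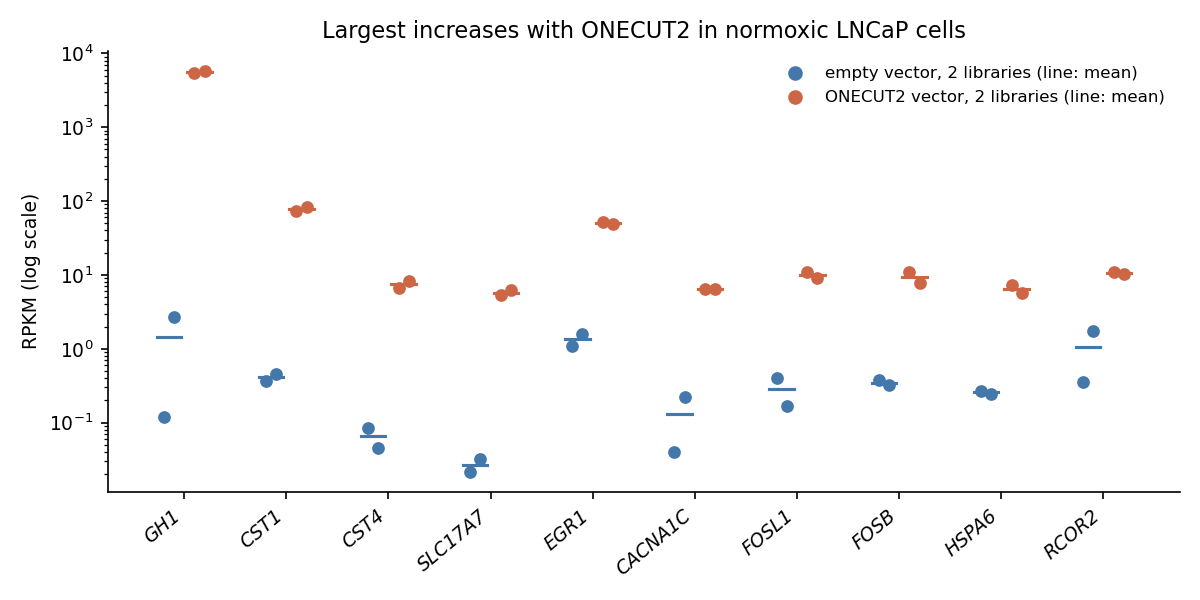
RPKM on a log axis of the 10 genes with the largest increases and a mean of at least 5 RPKM with ONECUT2, 1 point for each library and a line at the mean of the 2 libraries of a group. Both ONECUT2 libraries lie above both EV libraries in each gene, which the choice of these genes required. The EV libraries of GH1 (0.118 and 2.73 RPKM) are farthest apart.

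Immediate early genes are the transcription factors and feedback regulators that cells switch on within minutes of a stimulus. Of 22 tested, 9 rose and 2 fell (MYC and KLF4), beside 3.62% and 1.93% of all genes. A positive log2 fold change was seen in 19, with a median of 0.52 beside -0.08 for all genes. EGR1 was at 1.09 and 1.60 RPKM with EV and 52.2 and 49.5 RPKM with ONECUT2, 35.9-fold (adjusted p = 3.70e-05). The AP-1 subunit FOSL1 was at 0.396 and 0.166 RPKM against 11.0 and 9.17 RPKM (adjusted p = 0.000343), and its relative FOSB at 0.373 and 0.324 RPKM against 11.0 and 7.72 RPKM (adjusted p = 2.98e-05). ZFP36, which marks AU-rich mRNAs for decay, rose from 13.3 and 19.0 RPKM to 36.9 and 38.2 RPKM (adjusted p = 0.00388). EGR1, FOSL1 and FOSB were thus at low levels in EV cells, whereas ZFP36 was already expressed. With 1 normoxic library left out at a time, between 4 and 7 members were higher, with 4 when the first ONECUT2 library was left out.

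The decreases were smaller, and the largest rested on EV libraries that differed from each other. GDF15, a stress-induced cytokine of the TGF-beta family, was at 199 and 858 RPKM with EV and 78.4 and 85.2 RPKM with ONECUT2 (log2 fold change -2.34 ± 0.52, adjusted p = 0.0367). DDC, which makes dopamine and serotonin, was at 69.5 and 229 RPKM against 34.0 and 39.8 RPKM (adjusted p = 0.0473), and NDUFA4L2, a respiratory chain protein known as a target of hypoxia-inducible factors, at 14.7 and 30.0 RPKM against 4.49 and 7.67 RPKM (adjusted p = 0.0149). In these genes the second EV library was over 2-fold above the first, which held for 3 of the 206 genes that fell and had a mean of at least 5 RPKM. The call for DDC was lost in 11 of 19 alternative analyses and that for GDF15 in 6.

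More even decreases were seen in other genes. ACKR3, a scavenger receptor for the chemokine CXCL12, fell from 57.3 and 73.7 RPKM to 21.7 and 28.4 RPKM (adjusted p = 0.00533). S100P, a calcium-binding protein, fell from 20.4 and 22.9 RPKM to 7.29 and 9.70 RPKM, 2.55-fold (adjusted p = 0.00338). ARG2, the mitochondrial arginase, fell from 63.3 and 84.3 RPKM to 35.6 and 30.4 RPKM (adjusted p = 0.00428). S100P and ARG2 were called in all 19 alternative analyses, and ACKR3 in 18, with the exception of the one without the first ONECUT2 library. The other members of the 10 largest decreases were OAS2, described below, and TRIB3, REPS2 and VPS33B, at between 2.02-fold and 2.13-fold lower, and REPS2 lost its call in 13 of the 19.

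**Figure D3:**
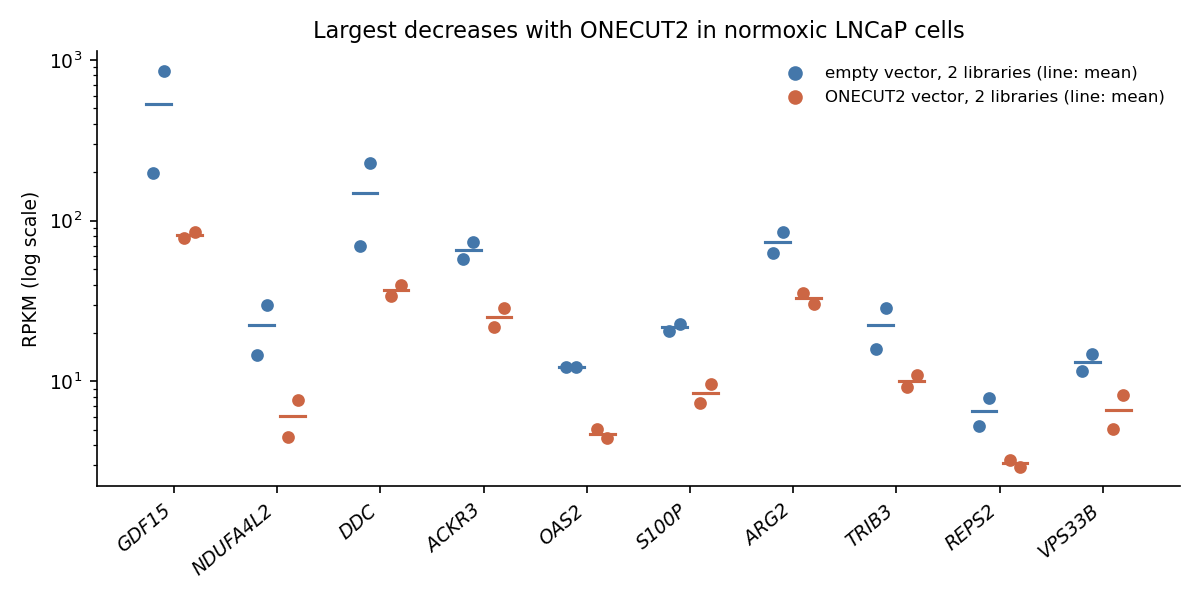
RPKM on a log axis of the 10 genes with the largest decreases and a mean of at least 5 RPKM with EV, 1 point for each library and a line at the mean of the 2 libraries of a group. Both ONECUT2 libraries lie below both EV libraries in each gene, which the choice of these genes required. The EV libraries of GDF15 (199 and 858 RPKM) and DDC (69.5 and 229 RPKM) are wide apart.

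Androgen-regulated genes were followed as a list of targets. KLK3, which encodes prostate-specific antigen, had 1995 and 2045 RPKM with EV and 1934 and 1842 RPKM with ONECUT2 (log2 fold change -0.10 ± 0.10, adjusted p = 0.578). The pioneer factor FOXA1 had 200 and 199 RPKM against 150 and 161 RPKM and lay at the threshold (adjusted p = 0.0506). Of 39 targets tested, 5 fell (CAMKK2, SLC45A3, SPDEF, CENPN and C1orf116), 1 rose (KRT8), and the median log2 fold change was -0.03, which turned to 0.06 after upper-quartile scaling. CAMKK2, a kinase upstream of AMPK, fell from 24.8 and 28.3 RPKM to 15.2 and 15.8 RPKM (adjusted p = 0.00592), and the prostate transporter SLC45A3 from 68.5 and 65.6 RPKM to 40.6 and 46.9 RPKM (adjusted p = 0.0174). After upper-quartile scaling, 3 targets were lower and 2 higher, and without the first ONECUT2 library none was lower. NCOA3, a steroid receptor coactivator, rose from 5.73 and 4.89 RPKM to 8.16 and 9.77 RPKM (adjusted p = 0.0243).

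Neuroendocrine genes were followed in a list of markers and factors and in a list given by the study. PEG10, a retrotransposon-derived gene linked to neuroendocrine prostate cancer (hg19 chromosome 7, 94285637 to 94299007, plus strand), rose from 11.5 and 10.5 RPKM to 24.8 and 21.8 RPKM, 2.11-fold (adjusted p = 0.00367), and was called in all 19 alternative analyses. The neuronal tubulin TUBB3 rose from 9.42 and 15.8 RPKM to 29.2 and 22.7 RPKM (adjusted p = 0.0315). These were the 2 of 13 neuroendocrine markers and factors tested that were called, beside 3.62% higher and 1.93% lower of all genes. INSM1 and CHGA, which define neuroendocrine tumours, were at most at 0.106 RPKM in the 4 libraries, and SYP had 0.879 and 1.77 RPKM with EV and 1.51 and 1.35 RPKM with ONECUT2 (adjusted p = 0.771). ENO2 had 5.16 and 11.9 RPKM with EV and 9.01 and 7.94 RPKM with ONECUT2 (adjusted p = 0.862). Of the genes the study lists as raised across poorly differentiated neuroendocrine tumours, 23 of 88 were tested. None was called, and at the shares of all genes few of 23 would be. The log2 fold change was positive in 15, with a median of 0.12 beside -0.08 for all genes. MYT1 (2.17 and 1.98 RPKM against 1.59 and 1.98 RPKM) and ZNF711 (3.03 and 2.32 RPKM against 1.92 and 1.88 RPKM), which are on that list, were not above EV, with adjusted p of 0.512 and 0.179. REST, the repressor of neuronal genes, had 14.9 and 12.5 RPKM against 13.2 and 15.2 RPKM (adjusted p = 0.857).

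Some genes of neurites and of other epithelial lineages were higher. Of 16 axon and synapse genes tested, MAP2, NRP1 and L1CAM rose and none fell. Without the first ONECUT2 library 1 was higher, and without the second EV library 4 were higher and 1 lower. The call was lost in 6 of 18 alternative analyses for L1CAM and in 5 of 19 for NRP1. MAP2, which binds microtubules in dendrites, went from 23.5 and 21.0 RPKM to 42.3 and 43.5 RPKM (adjusted p = 0.00253), and NRP1, a semaphorin and VEGF co-receptor, from 35.7 and 32.4 RPKM to 57.5 and 49.4 RPKM (adjusted p = 0.0242). In the lineage list, 3 of 12 rose and none fell. NGFR, the low-affinity neurotrophin receptor and a basal cell marker, was at 0.0249 and 0.0359 RPKM with EV and 4.74 and 4.26 RPKM with ONECUT2 (adjusted p = 2.98e-05). The basal integrin ITGB4 was at 4.06 and 5.75 RPKM against 14.5 and 11.2 RPKM (adjusted p = 0.00704), and the luminal keratin KRT8 at 207 and 238 RPKM against 386 and 356 RPKM (adjusted p = 0.00573). The members thus included both basal and luminal genes. In the list of liver and bile duct genes, KRT7, a keratin of ducts, was the 1 of 8 called, from 0.387 and 0.208 RPKM to 1.27 and 1.45 RPKM (adjusted p = 0.00704), and none of 6 ONECUT family and endodermal factors tested was called.

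Of 11 mesenchymal transition genes tested, 3 rose, none fell and 10 had a positive log2 fold change. Of all 11807 genes, 3.62% were higher, 1.93% lower and 4463 positive. The negative member was VIM, at 34.3 and 37.5 RPKM with EV and 23.6 and 28.7 RPKM with ONECUT2 (adjusted p = 0.0702). SNAI1, a repressor of E-cadherin, rose from 1.32 and 1.45 RPKM to 4.72 and 4.54 RPKM, 3.19-fold (adjusted p = 0.00185). SNAI2 rose from 4.61 and 4.23 RPKM to 6.85 and 7.75 RPKM (adjusted p = 0.028) and COL1A1 from 7.72 and 7.57 RPKM to 10.9 and 10.9 RPKM (adjusted p = 0.0333). None of 24 epithelial adhesion genes was called, although 3 were lower without the first EV library. With the first ONECUT2, the second ONECUT2 or the second EV library left out, 1 mesenchymal gene stayed higher.

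In the TGF-beta and SMAD list, 3 of 26 genes rose (ID2, ID1 and SMAD7) and GDF15 fell. The call was lost in 11 of 19 alternative analyses for SMAD7 and in none for ID1 and ID2. ID2, an inhibitor of basic helix-loop-helix factors, rose from 36.1 and 35.4 RPKM to 91.4 and 105 RPKM, 2.74-fold (adjusted p = 0.000164). ID1 rose from 18.4 and 12.8 RPKM to 35.7 and 40.6 RPKM (adjusted p = 0.00442). SMAD3 had 7.94 and 8.01 RPKM with EV and 9.88 and 8.98 RPKM with ONECUT2, which did not pass the test (log2 fold change 0.24 ± 0.14, adjusted p = 0.341). In the WNT list, 3 of 21 rose and none fell, beside 3.62% and 1.93% of all genes. The ligand WNT11 was listed at 0 in both EV libraries and at 1.75 and 1.27 RPKM with ONECUT2. The ligand WNT3 rose from 1.06 and 1.06 RPKM to 2.66 and 2.53 RPKM (adjusted p = 0.0109), and the transcription factor TCF7 from 0.378 and 0.909 RPKM to 3.40 and 3.47 RPKM (adjusted p = 0.0228). In the WNT list 1 gene was higher without the first ONECUT2 library. No Notch pathway gene of 19 tested was called, although 3 were lower without the first EV library.

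Hypoxia genes at normal oxygen showed 1 increase and 1 decrease among 23 HIF targets, with a median log2 fold change of -0.22, beside 3.62% and 1.93% of all genes. Neither was called without the first ONECUT2 library, and the call of P4HA2 was lost in 11 of 19 alternative analyses. P4HA2, a collagen prolyl hydroxylase, rose from 21.4 and 21.6 RPKM to 31.0 and 27.3 RPKM (adjusted p = 0.0417), and DDIT4, an inhibitor of mTOR, fell from 79.8 and 91.4 RPKM to 51.4 and 54.0 RPKM (adjusted p = 0.0155). HIF1A mRNA had 224 and 193 RPKM with EV and 186 and 215 RPKM with ONECUT2 (adjusted p = 0.836). None of 19 glycolysis genes was called. Their median log2 fold change was -0.30, beside -0.08 for all genes, and 16 of 19 were negative, beside 7344 of all 11807. None of 55 respiratory chain subunits was called either, although 10 were lower without the first EV library and 2 higher without the second ONECUT2 library.

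Cell cycle genes had small negative log2 fold changes, most of which did not pass the test. All 55 G2/M genes tested had a negative log2 fold change with a median of -0.40, and 8 fell. MYBL2, a transcription factor of the G2/M programme, fell from 22.8 and 21.8 RPKM to 13.4 and 14.3 RPKM, 1.61-fold (adjusted p = 0.0103). ECT2, which is needed for cytokinesis, fell from 42.0 and 39.8 RPKM to 26.4 and 29.2 RPKM (adjusted p = 0.0172). All 44 S phase genes were negative as well, with a median of -0.34, and MCM3 and DTL fell. These calls were lost in 14 and 16 of 19 alternative analyses, no S phase gene was called under either scaling or without the first ONECUT2 library, and 4 were lower without the second EV library. Among p53 targets, 4 of 27 rose and 2 fell, beside 3.62% and 1.93% of all genes. CDKN1A, which encodes the cyclin-dependent kinase inhibitor p21, rose from 72.9 and 95.7 RPKM to 155 and 172 RPKM (adjusted p = 0.00669), PLK3 from 2.66 and 3.01 RPKM to 5.71 and 5.28 RPKM (adjusted p = 0.0136) and the DNA damage response gene GADD45A from 47.7 and 46.0 RPKM to 81.6 and 70.3 RPKM (adjusted p = 0.0237), while GDF15 and PLK2 fell. Without the first ONECUT2 library 1 p53 target was higher and none lower. The count of G2/M decreases was 21 without the second EV library, 2 without the first, and 0 without the first ONECUT2 library, and 3 after upper-quartile scaling, where the list median was -0.31.

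Of 62 cytosolic ribosomal proteins, 61 had a negative log2 fold change with a median of -0.43, and 7 fell. RPL4 fell from 1751 and 2146 RPKM to 1011 and 1330 RPKM (adjusted p = 0.026) and RPS14 from 559 and 783 RPKM to 349 and 423 RPKM (adjusted p = 0.0292). The second EV library was the highest of the 4 in both. Without it no ribosomal protein was called, the same as without the first ONECUT2 library, and without the first EV library 40 were lower. After upper-quartile scaling 2 were lower and the median was -0.35. Ribosomal protein genes have many processed pseudogenes, with which reads can be shared.

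In the unfolded protein and integrated stress response list, 6 of 34 fell and 1 rose. PSAT1, of serine synthesis, fell from 118 and 129 RPKM to 66.0 and 71.6 RPKM (adjusted p = 0.00199). ATF4, the transcription factor of this response, fell from 278 and 392 RPKM to 190 and 212 RPKM (adjusted p = 0.0348), and XBP1 from 82.1 and 89.3 RPKM to 54.6 and 60.9 RPKM (adjusted p = 0.0277). PPP1R15A, the phosphatase subunit that ends the response, rose from 3.32 and 3.45 RPKM to 11.7 and 9.28 RPKM (adjusted p = 0.000963). The remaining decreases were TRIB3, ASNS and DDIT3. The call was lost in 12 of 19 alternative analyses for ATF4, in 9 for TRIB3 and in 7 for XBP1. PSAT1 lost it in 1 and PPP1R15A in none. The list count depended on single libraries: 1 member was lower without the second EV or the first ONECUT2 library, 2 without the second ONECUT2 library and 9 without the first EV library.

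Interferon-stimulated genes gave 3 decreases (IFIT2, OAS2 and IFIT1) and 1 increase (STAT2) among 42 tested, beside 1.93% lower and 3.62% higher of all genes. Of the 42, 31 were negative, beside 7344 of all 11807 genes. The list median was -0.26, beside -0.08 for all genes. OAS2, a sensor of double-stranded RNA, fell from 12.4 and 12.3 RPKM to 5.02 and 4.42 RPKM (adjusted p = 0.00704) and IFIT2 from 41.3 and 39.9 RPKM to 24.7 and 23.1 RPKM (adjusted p = 0.00488). STAT2, of the interferon receptor pathway, rose from 36.2 and 33.8 RPKM to 57.8 and 47.6 RPKM (adjusted p = 0.0244). Among 15 inflammatory and NF-kB genes the complement component C3 rose, from 2.32 and 2.42 RPKM to 5.42 and 5.88 RPKM (adjusted p = 0.0422). With any 1 normoxic library left out, no gene of this list was higher. Of 4 metallothioneins tested, MT1G fell from 14.2 and 12.9 RPKM to 7.70 and 8.50 RPKM (adjusted p = 0.0314). The call of MT1G was lost in 8 of 19 alternative analyses. Without the first ONECUT2 library 1 interferon-stimulated gene was lower. No gene was called among 32 of sterol and fatty acid synthesis, 15 of steroid metabolism and 22 NRF2 targets.

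The same vectors at 0.2% O2 gave values that do not enter the normoxic fold changes. All 8 libraries share 1 estimate of the spread, so the calls do depend on the hypoxic libraries: 304 to 324 genes were higher and 72 to 97 lower with 1 of them left out, and 286 and 64 in a fit to the 4 normoxic libraries. Of the 428 genes that rose in normoxia, 386 (90.2%) were also higher in hypoxia, beside 47.6% of all genes, and 245 were called there. These 245 are 57.2% of the normoxic increases and 33.5% of the 731 hypoxic ones, which are 6.19% of the genes tested. Of the 228 genes that fell, 171 (75.0%) were lower in hypoxia too, beside 52.4% of all genes. Of these, 52 were called, which is 22.8% of the normoxic decreases and 9.09% of the 572 hypoxic ones (4.84% of the genes tested). CST1 reached 281 and 231 RPKM with ONECUT2 in hypoxia, against 1.26 and 0.958 RPKM with EV (adjusted p = 2.77e-08). EGR1 and NGFR also rose in hypoxia (adjusted p = 1.46e-05 and 1.55e-05), and MYBL2, ECT2 and CDC20 fell in both. PEG10 had 22.8 and 24.8 RPKM with EV and 28.6 and 36.2 RPKM with ONECUT2 in hypoxia (adjusted p = 0.0775).

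Values of the ribosomal and stress response lists in hypoxia are given side by side with no test of the lists, and the difference between the effects did not pass for RPL4, RPS14, ATF4, PSAT1 or TRIB3 (adjusted p between 0.0938 and 0.188). The median log2 fold change of the ribosomal proteins was -0.08 in hypoxia with none called, and that of the stress response list was 0.12 with 2 higher and none lower. The G2/M median was -0.45 with 26 of 55 lower. GDF15 had 498 and 383 RPKM with EV and 484 and 398 RPKM with ONECUT2 in hypoxia, and its 2 effects could not be told apart (adjusted p = 0.179 for the difference).

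A test of the difference between the effects found 29 genes (0.246% of those tested) at an adjusted p under 0.05. In 4 of them, HSPA8, TPP1, KMT2C and BX088651.2, a hypoxic group was listed at 0 beside values over 10 RPKM. Of the 29, 17 were called in normoxia, 13 of them as increases. In 11 of these 13 the log2 effect was lower in hypoxia. The difference uses the same normoxic libraries that called these increases, so their choice favours a lower effect in hypoxia. The lower effect included a change of direction for TMBIM1 and IGF1R, both named after their values were seen. TMBIM1 had 0.47 in normoxia and -0.55 in hypoxia (adjusted p = 0.0298 for the difference and 0.00855 within hypoxia). IGF1R had 0.69 and -0.83 (adjusted p = 0.0333 for the difference and 0.00932 within hypoxia). ID2 is another of the 11, with 195 and 191 RPKM in hypoxic EV cells and 221 and 250 RPKM with ONECUT2. S1PR3, a sphingosine-1-phosphate receptor named after its values were seen, was at 1.08 and 0.998 RPKM with EV and 5.03 and 6.22 RPKM with ONECUT2 in normoxia, and at 6.21 and 6.14 RPKM against 5.40 and 6.88 RPKM in hypoxia (adjusted p = 0.00957 for the difference). DLX3, a homeobox gene chosen in the same way, had 0.133 and 0.366 RPKM only in the normoxic EV libraries, whereas the other 6 libraries ranged from 2.48 to 3.48 RPKM (adjusted p = 0.0336). IGF2, an insulin-like growth factor, went the other way, with a log2 fold change of 3.07 in normoxia and 4.76 in hypoxia (adjusted p = 0.0477).

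**Figure D4:**
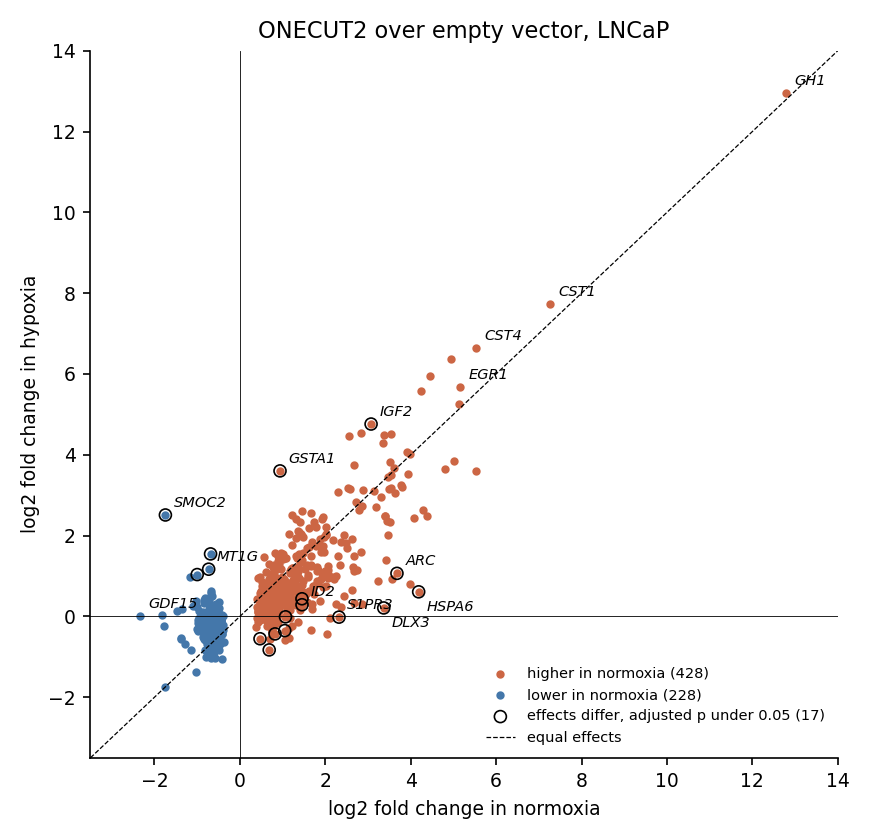
Log2 fold change, ONECUT2 over EV, in normoxia on the x axis and in hypoxia on the y axis, for the 428 genes that rose and the 228 that fell in normoxia. GH1 (12.80 and 12.94) and CST1 (7.26 and 7.73) lie near the dashed line of equal effects, SLC17A7 (5.52 and 3.59) and FOSB (4.38 and 2.48) lie below it, and circled genes such as HSPA6 (4.19 and 0.61), DLX3 and SMOC2 lie away from it.

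In PC3 cells the knockdown is the opposite manipulation, and siCtrl over siOC2 is the matching direction. The 2 siOC2 libraries carried different siRNAs, so the spread in that group includes any difference between the siRNAs. ONECUT2 had 1.77 and 1.16 RPKM with siCtrl and 0.276 and 0.204 RPKM with siOC2. Normoxic LNCaP cells with EV had 2.89 and 7.86 RPKM, and the cell lines were not tested against each other. Of 11681 genes tested in PC3, 1 passed an adjusted p under 0.05, and at the fold and unadjusted P limits of the study 199 (1.7%) were higher and 421 (3.6%) lower with siCtrl. Of 328 genes that rose in LNCaP and were tested in PC3, 119 (36.3%) were higher with siCtrl, beside 39.4% of all PC3 genes, and 10 (3.05%) were called higher and 19 (5.79%) lower. Of 204 genes that fell in LNCaP, 87 (42.6%) were lower with siCtrl, beside 60.6% of all, and 10 (4.90%) were called lower and 5 (2.45%) higher. The 10 increases shared by both lines were CST2, CST4, CYP1A1, TCF7, SNX24, PCOLCE and the histone genes HIST1H2BD, HIST1H2BF, HIST1H2BG and HIST1H3H. The 19 that went the other way included SLC17A7 (log2 difference -1.79, siCtrl over siOC2), CDKN1A (-1.83) and PPP1R15A (-1.39). JUNB (-1.43), NR4A1 (-1.04) and RASD1 (-2.60) were also among them. With the first and the second siRNA, RASD1 had 10.1 and 2.44 RPKM, and SLC17A7 had 3.24 and 2.63 RPKM. CST1 had 4.43 and 3.65 RPKM with siCtrl and 2.71 and 1.59 RPKM with siOC2 in PC3, a log2 difference of 0.92 that is under the fold limit. The cell lines, the direction of the manipulation and the baseline level of ONECUT2 all differ between the experiments.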

How the data were processed

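The members, gene lists and tests were chosen with earlier results of these data known. RNA-Seq covered 16 libraries, 2 for each of 8 groups, and groups follow the labels. The authors prepared TruSeq Stranded mRNA libraries, aligned trimmed reads with STAR 2.4.2a (hg19) and quantified genes with Cufflinks 2.1.1 on a GENCODE annotation. The deposited RPKM table holds 1 value for each gene and library. No read counts entered the analysis, and precision therefore rests on the spread between libraries. ChIP-Seq (12 samples) was not used here.

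The 11807 genes kept were transformed to log2(RPKM + 0.1), a scale that understates changes of low genes, and a mean per LNCaP group was estimated from 8 libraries (limma 3.58.1, R 4.3.3, variance trend on, no blocking, 4 residual degrees of freedom). Moderated tests were 2-sided and Benjamini-Hochberg adjusted over all genes tested. The PC3 table was fitted separately. Named genes were the 10 largest increases and 10 largest decreases among calls without overlap and with a mean of at least 5 RPKM in the higher group, up to 4 called members of each of 30 gene lists by lowest P, and the fixed genes ONECUT1, ONECUT2, ONECUT3, SMAD3, HIF1A, KLK3, PEG10, ENO2, INSM1, MYT1, MYT1L, ZNF711, CHGA, SYP, FOXA1 and REST. Some genes of this rule are not reported here. Lists were described by counts and medians with no set test. Over all 11807 genes, 3.62% were higher and 1.93% lower, and 4463 log2 fold changes were positive and 7344 negative. Gene coordinates came from a GENCODE annotation mapped to GRCh37. The fit was tested on simulated data. Alternatives changed the pseudocount, filters, scaling, libraries fitted, trend, block, threshold and each library in turn.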

Additional observations from a re-analysis of the deposited data

Results flagged for a closer look

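Among the named genes, 3 had an effect of ONECUT2 that differed between normoxia and hypoxia in the limma test of that difference. The effect on HSPA6, the stress-inducible HSP70, differed by -3.58 on the log2 scale, hypoxia minus normoxia (adjusted p = 0.0393), where EV cells had 0.671 and 0.644 RPKM and ONECUT2 cells 1.65 and 0.663 RPKM. The effect on ID2 differed by -1.17 (adjusted p = 0.0298), with hypoxic EV cells already at 195 and 191 RPKM. The effect on MT1G, a metal-binding metallothionein, differed by 1.90 (adjusted p = 0.0142) and changed direction. In hypoxia MT1G had 2.43 and 1.94 RPKM with EV and 5.30 and 4.74 RPKM with ONECUT2. The call of its normoxic decrease was lost in 8 of 19 alternative analyses.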

How the results depend on the processing

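Of 67 called named genes, 985 of 1266 values under the alternatives kept their direction and call, 281 kept the direction and lost the call, and none reversed. The increases (428) numbered 216 with a 5 RPKM filter, 270 at the fold and unadjusted P limits and 133 to 376 with 1 library left out. The decreases (228) numbered 113 without a filter, 104 after upper-quartile scaling, 122 after median-ratio scaling, 64 in a fit to the 4 normoxic libraries, 128 without the trend, 43 at the fold limits and 13 to 544 with 1 library left out. The genes whose effect differed in hypoxia (29) numbered 44 with a pseudocount of 1, 7 without a filter, 17 with a 5 RPKM filter, 356 at the fold limits, 18 with exact zeros screened in all 8 libraries, an alternative chosen after seeing the data, and 6 to 201 with 1 library left out. The share of calls with the same direction in hypoxia (84.9%) was 90.1% without a filter and 78.4 to 90.4% with 1 library left out, and that in PC3 (38.7%) was 32.7% and 34.6 to 46.5%. The deviations of same-numbered EV and ONECUT2 libraries from their group means correlated by 0.00150 in normoxia and 0.157 in hypoxia. With 2 libraries in each group these values cannot settle whether the libraries were paired, and the labels do not say. With the replicate block, 357 genes were higher, 130 lower and 17 differed in hypoxia. The causes of these changes were not tested. Libraries left alone in a group were assumed to vary like the other groups. The library depth, known only relative to each other, limits calls of genes near 0.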

Other observations

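Other gene families were counted after their values were seen, so these counts are descriptions with no test of a family. Of 43 histone genes (symbols beginning with HIST) tested, 6 rose, none fell and 39 had a positive log2 fold change. Their median was 0.36, beside -0.08 for all genes. Of all 11807 genes, 3.62% were higher, 1.93% lower and 4463 positive. HIST2H2BE rose from 85.1 and 106 RPKM to 167 and 170 RPKM in normoxia. Single genes chosen in the same way included HOXC8 and HOXC9. HOXC8 was at 0.0592 and 0.0294 RPKM with EV and 2.27 and 2.36 RPKM with ONECUT2, and HOXC9 at 7.44 and 5.81 RPKM against 21.4 and 19.1 RPKM. Both are homeobox genes that set position along the body axis, and they started from different levels.

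Calcium channel subunits were also counted, to be set beside 3.62% higher and 1.93% lower of all genes. Of 5 CACNA genes tested, 3 rose and none fell, and besides CACNA1C these were CACNA1G, at 0.0276 and 0.132 RPKM against 2.32 and 2.16 RPKM, and CACNA2D2, at 2.18 and 3.09 RPKM against 8.61 and 7.87 RPKM. GSTA1, a glutathione transferase, was at 14.1 and 16.7 RPKM with EV and 24.8 and 35.2 RPKM with ONECUT2 in normoxia, and at 7.03 and 6.87 RPKM against 100.1 and 73.0 RPKM in hypoxia. Of 18 cytosolic aminoacyl-tRNA synthetases tested, GARS and MARS fell and none rose, beside 1.93% lower and 3.62% higher of all genes.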
